A study of Mus musculus with 12 samples.

Results

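The comparison described here set cardiomyocyte libraries of a mouse model called CKD in the labels against libraries of sham-operated mice, with both injections pooled and the injection kept as a covariate. All 12 libraries of the series entered it: 6 CKD libraries (3 with saline, 3 with JV001) and 6 sham libraries (3 with saline, 3 with JV001). The CKD model combined AngII (angiotensin II), a high salt diet and uninephrectomy, the removal of 1 kidney. The tissue was heart, the cell type cardiomyocytes, the genotype WT and the strain C57BL6. The labels name JV001 by this code alone, and every animal, sham or CKD, had received an injection of either saline or JV001. The labels give 12 weeks for both sham groups and for CKD with JV001, and no time for CKD with saline. The separate parts of the model (AngII, salt and surgery) were always given together, so their shares in a difference cannot be told apart. The labels do not tie the libraries to separate animals, so the p-values below measure only the spread between these libraries, which may be technical.

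Angiotensin II signals through Gq-coupled receptors in vessels and heart, raises blood pressure and promotes sodium retention, and with high salt and less kidney mass it is used to load the heart. Cardiac myocytes answer hormones through cyclic AMP and calcium: adenylyl cyclases make cyclic AMP, phosphodiesterases break it down, and RGS proteins shorten the signal of G proteins. Chronic load of the heart is known for matrix deposition by fibroblasts and for entry of inflammatory cells, and a preparation of myocytes can carry RNA of such cells.

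The depth of a library was 32.7 to 37 in sham and 25.2 to 34.4 in CKD, each as 1e6 counts. Defining ventricular markers were abundant in all 12 libraries, at a summed level of 24406 to 98679 CPM (counts per 1e6 counts, scaled with TMM factors). Replicate 3 of both CKD groups stood apart from replicates 1 and 2 of its own group: the summed fibroblast markers were 2511 CPM in CKD saline replicate 3 against 640.2 and 664.7 CPM in replicates 1 and 2. In CKD JV001 the summed inflammation genes were 5961 CPM in replicate 3 against 450.6 and 448.6 CPM in replicates 1 and 2. Sham saline replicate 1 stood apart from sham saline replicates 2 and 3, with summed atrial markers of 4513 CPM against 480.2 and 1576 CPM. Replicates 1 and 2 were the closest pair within each CKD group and the closest of all pairs within a group. Their chi-square per degree of freedom over genes was 8.31 in CKD saline and 23.3 in CKD JV001, against 28.3 to 356 in the other pairs, and their log2 levels correlated at 0.977 and 0.981. Both exceed counting noise, which repeat libraries of 1 animal could do as well, so whether they are separate animals was not tested. They were counted as separate samples, as the labels list them, and with each pair summed to 1 library edgeR called 0 genes, so the calls below rest on that choice.

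With edgeR's quasi-likelihood test and Benjamini-Hochberg adjustment, 45 of 15004 genes tested differed between CKD and sham (0.3% of genes). Of these, 35 fell in CKD (0.233%) and 10 rose (0.0666%). The group that fell held signalling genes (Pde3a, Adcy1, Akap9, Rgs2, Ednra), carriers and sensors of iron and amino acids (Slc40a1, Slc7a1, Slc6a17, Castor2), and the large centromere protein gene Cenpf. The group that rose held the prostaglandin receptor gene Ptger4, the matrix gene Cilp, the chemokine gene Ccl5 and the chitinase-like gene Chil3. The median log2 fold change was -0.95 over the 35 genes that fell and 2.20 over the 10 that rose, beside 0.0066 over all genes tested. At an unadjusted p under 0.05 the counts were 2352 higher (15.7%) and 1701 lower (11.3%). In bulk libraries such as these, fewer cells of a type and less RNA per cell cannot be told apart.

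The 45 genes were called from both arms together, so their separation within each arm is given as a description. In 44 of the 45 genes (0.293% of all tested) the 3 CKD libraries did not overlap the 3 sham libraries within either arm, in the same direction. Over all tested genes, 667 (4.45%) had that pattern, whether called or not, 227 of them higher (1.51%) and 440 lower (2.93%). Signs were the same in both arms in 72.5% of all genes, and the groups did not overlap in 10.6% of genes within the saline arm and in 43% within the JV001 arm. Across all 12 libraries, 322 of all tested genes did not overlap (2.15%). Of the called genes, 34 of the 35 genes that fell lay lower in each CKD library than in any sham library, beside 226 genes (1.51%) in the whole table, and 8 of the 10 that rose lay higher, beside 96 genes (0.64%). The exceptions were Gm40652 among the genes that fell, and Htra4 and A630001G21Rik among those that rose. CKD saline replicates 1 and 2 both lay below all 6 sham libraries in each of the 35 genes that fell, and above them in 8 of the 10 that rose. For all of these genes but Gm40652 this follows from the lack of overlap across all 12 libraries. These 2 libraries were among those that called the genes, so the pattern is only a description. The share of all tested genes with that pattern was not counted.

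**Figure D1:**
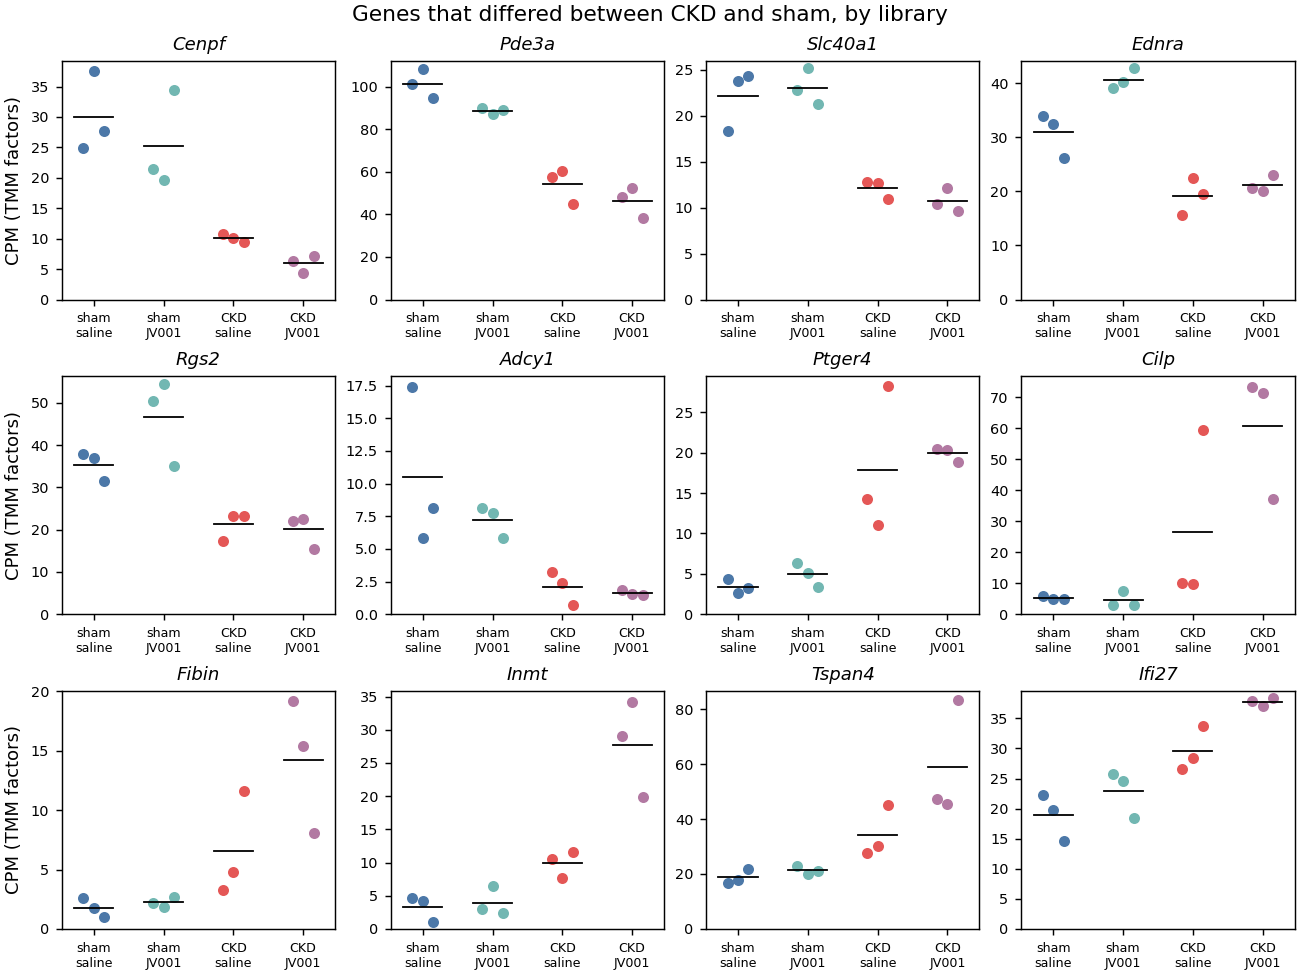
Expression of 12 genes that differed between CKD and sham, 1 panel per gene. The vertical axis is CPM with TMM factors and starts at 0, each point is 1 library, the horizontal bars are the means of 3 libraries, and the 4 columns are sham saline, sham JV001, CKD saline and CKD JV001. In each panel the 6 CKD points lie on 1 side of the 6 sham points, while Cilp and Fibin spread widely among CKD libraries, from 9.90 to 73.5 CPM for Cilp.

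The promoters of 4 of these genes are shown because they belong to members that moved in opposite directions (Ptger4 up, the others down) and carry the same 2 common elements. Each line is the 250 bases before the annotated start, read 5′ to 3′ on the gene's strand, from RefSeq on build GRCm38.p6, and the capitals mark a CCAAT box (CCAAT) or a GC box (GGGCGG), each on either strand. Cenpf is at chr1:189688087-189688336 (minus strand), Ptger4 at chr15:5244188-5244437 (minus strand), Rgs2 at chr1:144004150-144004399 (minus strand) and Acot1 at chr12:84009252-84009501 (plus strand).
Cenpf: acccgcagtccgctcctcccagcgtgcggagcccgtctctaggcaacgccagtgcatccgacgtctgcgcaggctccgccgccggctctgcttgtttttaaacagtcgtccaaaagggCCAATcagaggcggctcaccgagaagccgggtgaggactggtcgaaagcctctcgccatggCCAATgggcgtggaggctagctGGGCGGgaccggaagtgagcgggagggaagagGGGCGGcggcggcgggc
Ptger4: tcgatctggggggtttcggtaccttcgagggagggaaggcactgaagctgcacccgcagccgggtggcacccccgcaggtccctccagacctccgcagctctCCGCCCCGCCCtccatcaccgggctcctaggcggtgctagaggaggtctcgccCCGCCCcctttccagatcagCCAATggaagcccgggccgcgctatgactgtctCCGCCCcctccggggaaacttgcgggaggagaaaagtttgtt
Rgs2: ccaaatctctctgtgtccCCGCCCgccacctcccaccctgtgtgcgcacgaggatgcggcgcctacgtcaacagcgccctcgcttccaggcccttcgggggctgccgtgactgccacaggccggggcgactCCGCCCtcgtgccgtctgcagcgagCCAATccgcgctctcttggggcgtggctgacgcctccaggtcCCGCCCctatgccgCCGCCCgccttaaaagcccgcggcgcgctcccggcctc
Acot1: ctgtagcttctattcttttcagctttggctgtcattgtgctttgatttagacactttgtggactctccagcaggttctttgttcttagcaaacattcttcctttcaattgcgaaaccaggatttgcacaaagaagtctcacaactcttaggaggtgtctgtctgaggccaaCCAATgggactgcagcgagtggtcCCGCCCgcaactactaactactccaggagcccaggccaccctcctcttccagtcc
The Cenpf window held 2 CCAAT boxes, at 132 and 71 bases before the start, and 2 GC boxes, while the Acot1 window held 1 of each. In the Ptger4 window 2 of the 4 GC boxes overlap each other by 1 base. Promoter windows were matched for 31 of the 45 genes. GC boxes were in 18 of these 31 (58.1%) and in 32.7% of all 32851 windows of the same length, and CCAAT boxes were in 13 (41.9%) against 33.8%. The cyclic AMP response element TGACGTCA was in 0 of the 31 and in 1.55% of all windows, the E-box CACGTG in 2 (6.45%) against 6.02%, and TATAAA in 3 (9.68%) against 12.4%. The sequence TTTGAA, part of an element of cell cycle genes, was in 6 (19.4%) against 16%. A called gene was counted if any of its windows held a match, while each of the 32851 windows was counted alone. The 2 shares were thus not measured alike, and a gene with several windows had more chances of a match. The 32851 windows were also not limited to genes tested here, while all 31 called genes had passed the expression filter. These are letter matches and say nothing of binding.

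Among the genes that fell were some of cyclic AMP signalling. Pde3a encodes a phosphodiesterase that breaks down cyclic AMP near the sarcoplasmic reticulum of cardiac myocytes. Its level was 87.2, 92.3 and 109 CPM (lowest, median and highest of 6 libraries) in sham and 38.4, 50.2 and 60.7 CPM in CKD. The CKD libraries all lay below the sham libraries, and Pde3a fell by 0.92 on the log2 scale (SE 0.106, adjusted p = 0.00645). Adcy1, a calcium-stimulated adenylyl cyclase, had 5.82, 7.95 and 17.4 CPM in sham and 0.715, 1.70 and 3.22 CPM in CKD. Adcy1 fell by 2.22 (SE 0.348, adjusted p = 0.0298), and the sham value of 17.4 CPM was that of sham saline replicate 1 alone. Akap9, which anchors protein kinase A to ion channels, fell by 0.50 (SE 0.0910, adjusted p = 0.0487), from 53.4 ± 2.23 to 37.9 ± 4.51 CPM (mean ± SD, n = 6 each).

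Rgs2 encodes a protein that switches off Gq and so limits the signal of angiotensin II receptors. It had 31.4, 37.4 and 54.5 CPM in sham and 15.5, 22.4 and 23.2 CPM in CKD, with no overlap, and fell by 0.98 (SE 0.160, adjusted p = 0.0348). Ednra, the endothelin A receptor gene, had 26.2, 36.6 and 42.8 CPM in sham and 15.6, 20.4 and 23.0 CPM in CKD. Ednra fell by 0.81 (SE 0.116, adjusted p = 0.0227), and the CKD libraries of both injections sat close together below the sham range. Homer1, a scaffold of calcium signalling complexes, fell by 0.90 (SE 0.153, adjusted p = 0.0397). Pdpk1, the kinase that activates AKT, fell by 0.43 (SE 0.0787, adjusted p = 0.0488), the smallest of the 45 changes, and its 6 CKD libraries ranged only from 36.8 to 38.5 CPM. Of the 17 tested genes of the adrenergic and cyclic nucleotide list, 2 fell (Pde3a and Rgs2) and 0 rose, beside 0.233% lower over all genes, 13 of 17 had a negative log2 fold change, beside 49.5% over all genes, and the list's median was -0.42. Adra1b, an alpha-1 adrenergic receptor gene of that list, stood at -0.82 (SE 0.190) and did not pass (adjusted p = 0.0700). This list and all lists below were chosen with earlier results of these data known. Their counts beside the background are therefore descriptions and show no enrichment.

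Ptger4, the receptor for prostaglandin E2 that raises cyclic AMP, rose. Its level was 2.57, 3.88 and 6.31 CPM in sham and 11.1, 19.6 and 28.2 CPM in CKD, which is 4.52 times the sham mean. All CKD libraries lay above all sham libraries, and the log2 fold change was 2.20 (SE 0.248, adjusted p = 0.00645). It was 2.40 in the saline arm and 2.00 in the JV001 arm. Of the 14 tested genes of the prostaglandin list Ptger4 alone passed, beside 0.0666% higher over all genes, 13 of 14 had a positive log2 fold change, and the median was 0.76. Ptgir, the prostacyclin receptor gene, stood at 2.04 (SE 0.544, adjusted p = 0.0875) and Ptgis, the prostacyclin synthase gene, at 1.31 (SE 0.390, adjusted p = 0.103).

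Transport and metabolism made up the next group. Slc40a1 encodes ferroportin, the exporter of iron from cells. It had 18.4, 23.3 and 25.2 CPM in sham and 9.68, 11.5 and 12.8 CPM in CKD, and fell by 0.99 (SE 0.116, adjusted p = 0.00645). The 2 ranges were narrow and did not overlap. Slc40a1 was the 1 gene of 9 on the iron handling list that passed, beside 0.3% of all genes, and that list's median was -0.09. Slc7a1, a carrier of arginine and other cationic amino acids, fell by 0.72 (SE 0.114, adjusted p = 0.0315). Castor2, a relative of the arginine sensor upstream of mTORC1, fell by 0.84 (SE 0.128, adjusted p = 0.0287), with 14.4 to 21.9 CPM in sham and 7.92 to 11.1 CPM in CKD. Slc6a17, a neutral amino acid carrier, fell by 1.18 (SE 0.176, adjusted p = 0.0287).

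Aldh1l2 encodes a mitochondrial enzyme of folate metabolism. It had 6.15, 9.74 and 11.8 CPM in sham and 2.22, 3.09 and 3.63 CPM in CKD, so that the highest CKD library lay well below the lowest sham library, and it fell by 1.61 (SE 0.220, adjusted p = 0.0212). Acot1, a thioesterase that frees fatty acids from coenzyme A, fell by 0.95 (SE 0.134, adjusted p = 0.0227), from 8.08 ± 0.978 to 4.19 ± 0.382 CPM. Acot1 has a near-identical neighbour, Acot2, so the split of reads between them is uncertain, and Acot2 stood at -0.68 (SE 0.227, adjusted p = 0.115). Phkg1, the catalytic subunit of muscle phosphorylase kinase, which starts glycogen breakdown, fell by 1.17 (SE 0.183, adjusted p = 0.0298), with 21.0, 27.9 and 33.5 CPM in sham and 6.54, 12.9 and 14.96 CPM in CKD.

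Cenpf encodes a large protein of the kinetochore and of microtubule organisation. It had 19.6, 26.3 and 37.5 CPM in sham and 4.35, 8.34 and 10.7 CPM in CKD, which is 29.1% of the sham mean, and it fell by 1.82 (SE 0.194, adjusted p = 0.00645). All CKD libraries lay below all sham libraries, with the 3 CKD JV001 libraries lowest. The cell cycle list that holds Cenpf did not move with it: of 28 tested genes 1 fell, 0 rose (0.3% of all genes did either), and 23 had a positive log2 fold change, with a median of 0.54. Its 6 Mcm genes, which encode the helicase of DNA replication, stood between 0.44 and 1.15, with an unadjusted p under 0.05 in 6 of 6 and adjusted p from 0.0643 to 0.116. DESeq2 called 7 genes of the list higher and 1 lower. Over all 15004 genes tested, DESeq2 called 1215 higher and 719 lower.

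Among the other genes that fell were Klhl13, an adaptor of a cullin ubiquitin ligase, at -0.82 (SE 0.109, adjusted p = 0.0187), and Dyrk2, a protein kinase, at -0.73 (SE 0.126, adjusted p = 0.0407). Lgr6, a receptor of R-spondins, had 39.99, 44.5 and 64.3 CPM in sham and 11.2, 20.4 and 30.2 CPM in CKD and fell by 1.16 (SE 0.185, adjusted p = 0.0315). Pygo1, a coactivator of beta-catenin, fell by 1.05 (SE 0.192, adjusted p = 0.0487). Nrg2, a ligand of ErbB receptors, fell by 1.48 (SE 0.260, adjusted p = 0.0445) and Tfpi, the inhibitor of the tissue factor pathway of clotting, by 0.65 (SE 0.115, adjusted p = 0.0454). Rp1, a microtubule-associated protein known from photoreceptors, had 3.00 to 7.55 CPM in sham and 0.380 to 1.62 CPM in CKD. Per length, Parm1 was the highest of the genes that fell, at a mean of 26.6 FPKM in sham and 14.8 FPKM in CKD, and Nrg2 the lowest in sham, at 0.183 FPKM. The remaining genes that fell were Adam11, Dip2c, Cspg4b, Ndnf, Gm41717, Gm40652, Rabgap1l, Gm40427, Zbtb20, Gm16576, Ppm1l and Cracd, with log2 fold changes between -2.73 (Gm40427) and -0.63 (Rabgap1l).

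The genes that rose were mostly low in sham. Cilp, a matrix protein of cartilage and of scarred heart, had 2.97, 4.91 and 7.49 CPM in sham and 9.90, 48.4 and 73.5 CPM in CKD. It rose by 3.04 (SE 0.521, adjusted p = 0.0397), and CKD saline replicates 1 and 2 lay just above the sham range, at 9.995 and 9.90 CPM, far below the other 4 CKD libraries. Fibin, a secreted protein, had 1.04, 2.02 and 2.70 CPM in sham and 3.26, 9.84 and 19.2 CPM in CKD and rose by 2.28 (SE 0.367, adjusted p = 0.0321). Inmt, an indole N-methyltransferase, had 1.11, 3.54 and 6.45 CPM in sham and 7.69, 15.7 and 34.2 CPM in CKD and rose by 2.21 (SE 0.397, adjusted p = 0.0475). The CKD JV001 libraries were above the CKD saline libraries in Inmt, with no overlap between the 2 CKD groups, and the interaction of CKD and injection had an unadjusted p of 0.101.

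Tspan4, a tetraspanin, had 16.6, 20.5 and 22.8 CPM in sham and 27.5, 45.4 and 83.4 CPM in CKD and rose by 1.17 (SE 0.197, adjusted p = 0.0388). Ifi27, an interferon-induced gene, rose by 0.68 (SE 0.126, adjusted p = 0.0496), the smallest rise of the 10, from 20.9 ± 4.12 to 33.7 ± 5.10 CPM. Per length, Ifi27 was the highest of the genes that rose, at a mean of 25.8 FPKM in CKD. Htra4, a serine protease, rose by 1.84 (SE 0.322, adjusted p = 0.0445). Its levels in CKD saline replicates 1 and 2, at 0.925 and 1.68 CPM, lay inside the sham range of 0.389 to 1.97 CPM. A630001G21Rik, whose lowest CKD library also overlapped sham by a narrow margin, rose by 1.87 (SE 0.334, adjusted p = 0.0454).

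Ccl5 and Chil3 are products of immune cells. Chil3, a chitinase-like protein of myeloid cells, had 0 reads in all 6 sham libraries, and 0.222, 1.12 and 7.51 CPM in CKD, a total of 404 reads. Set against the limit of 3 reads that a count of 0 allows in each library (a mean of 0.0869 CPM), it was at least 23.2-fold higher in CKD (adjusted p = 0.0388). Ccl5, a chemokine that attracts T cells, had 11 reads in all sham libraries together and 219 in CKD, or 0, 0.0293 and 0.124 CPM in sham and 0.259, 0.801 and 3.29 CPM in CKD. Its log2 fold change was 4.15 (SE 0.635, adjusted p = 0.0294). In both genes CKD JV001 replicate 3 was highest. Without that library the mean of Chil3 over the other 5 CKD libraries was 0.919 CPM, at least 10.6-fold higher than the same limit, and that of Ccl5 was 0.665 CPM. Chil3 has close relatives in the genome, so its reads are uncertain where the counting could split them.

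These genes rose beside markers of other cell types. All 12 macrophage markers had a positive log2 fold change, with a median of 1.66 and a summed level of 39.9 to 278.6 CPM in sham and 105 to 1023 CPM in CKD. All 12 fibroblast markers were positive as well, with a median of 1.15 and a summed level of 314 to 1319 CPM in sham and 640 to 3864 CPM in CKD, and 11 of 11 endothelial markers had a median of 0.95. Without replicate 3 of both CKD groups the medians were 0.94 for macrophage, 0.62 for fibroblast and 0.51 for endothelial markers. The macrophage sums of CKD saline replicates 1 and 2 (107 and 105 CPM) lay inside the sham range. So did the fibroblast sums (640 and 665 CPM) and endothelial sums (1101 and 1058 CPM, sham 519 to 1820 CPM) of these libraries. Summed neutrophil markers ran from 0.907 to 62.2 CPM in sham and from 5.48 to 347 CPM in CKD, and no defining marker of these lists was at 0 in all libraries. None of these markers passed in edgeR (unadjusted p under 0.05 in 11 macrophage, 9 fibroblast and 10 endothelial markers), while DESeq2 called 10, 8 and 6 of them. Over all 15004 genes tested, 15.7% were higher at an unadjusted p under 0.05, and DESeq2 called 1215 higher. In exact permutation tests within arms the summed level differed at p = 0.04 for macrophage, 0.04 for fibroblast and 0.035 for endothelial markers, each at 0.072 after adjustment over 18 library values. The same exact permutation test gave p = 0.125 for neutrophil markers (adjusted 0.188), 0.105 for T and NK cell markers (adjusted 0.172) and 0.235 for smooth muscle and pericyte markers (adjusted 0.302), so none of these passed. The part of other cells in the rise of Cilp, Ccl5 and Chil3 was not tested.

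**Figure D2:**
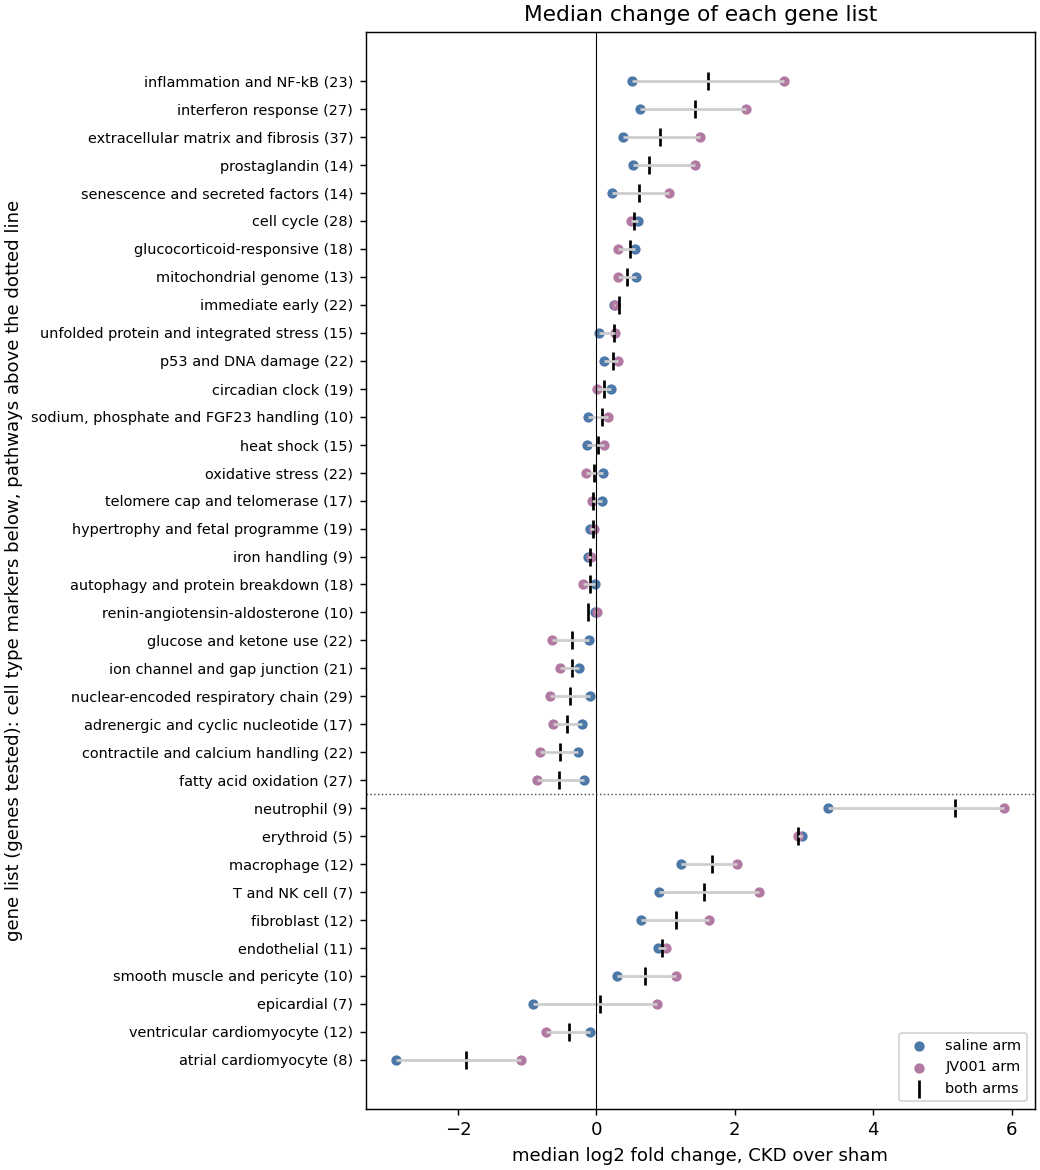
Median log2 fold change, CKD over sham, of 36 gene lists with 5 or more tested genes, in both arms together (black ticks), the saline arm (blue) and the JV001 arm (purple), with the number of tested genes in brackets. Cell type markers are below the dotted line and pathways above it. Inflammation genes (1.62 in both arms) and fatty acid oxidation genes (-0.54) are at opposite ends of the pathway lists, and in both lists the JV001 arm lies farther from 0.

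Some pathway lists had most members on 1 side of 0 and others were mixed, and few members passed in any of them. Over all tested genes 50.5% had a positive log2 fold change and 0.3% were called in edgeR. DESeq2 called 1934 of the 15004 (1215 higher, 719 lower), and 15.7% were higher and 11.3% lower at an unadjusted p under 0.05. Of 37 extracellular matrix genes 1 rose (Cilp), 36 were positive, and the median was 0.92. Thbs4, a matrix glycoprotein, stood at 2.32 (SE 0.443, adjusted p = 0.0562), and Ltbp2, which binds matrix microfibrils, at 2.50 (SE 0.471, adjusted p = 0.0523). Of 23 inflammation genes 1 rose (Ccl5), 23 were positive, and the median was 1.62. The interferon response list had 27 of 27 positive, a median of 1.43 and no call in edgeR (20 with an unadjusted p under 0.05, 5 called by DESeq2). Without replicate 3 of both CKD groups these medians were 0.44 for matrix, 0.22 for inflammation and 0.37 for interferon genes. Saline and JV001 arm medians were 0.38 and 1.49 for matrix, 0.52 and 2.70 for inflammation and 0.63 and 2.16 for interferon genes. Summed inflammation genes of CKD saline replicates 1 and 2 (172 and 174 CPM) lay inside the sham range of 137 to 415 CPM. So did their matrix sums (1359 and 1363 CPM, sham 1181 to 2762 CPM) and interferon sums (330 and 332 CPM, sham 228 to 633 CPM).

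Lists of myocyte function lay on the other side of 0. All 27 fatty acid oxidation genes had a negative log2 fold change, with a median of -0.54 and no call in edgeR (14 with an unadjusted p under 0.05, 6 called by DESeq2). Over all 15004 genes, 11.3% were lower at an unadjusted p under 0.05, and DESeq2 called 719 lower. Ppara, a nuclear receptor that drives fatty acid use, stood at -0.96 (SE 0.219, adjusted p = 0.0673) and Ppargc1a, its coactivator, at -1.16 (SE 0.290, adjusted p = 0.0801). The 22 contractile and calcium handling genes were all negative too, with a median of -0.53 and no call (12 with an unadjusted p under 0.05, 9 called by DESeq2). Ryr2, the calcium release channel of the sarcoplasmic reticulum, had 1837 to 2242 CPM in sham and 543 to 1787 CPM in CKD, with no overlap, and did not pass (log2 fold change -0.90, SE 0.227, adjusted p = 0.0801). Summed fatty acid oxidation genes of CKD saline replicates 1 and 2 (22642 and 22626 CPM) lay inside the sham range of 18476 to 24259 CPM. So did their contractile sums (112467 and 113120 CPM, sham 93130 to 127466 CPM). Saline and JV001 arm medians were -0.18 and -0.85 for fatty acid oxidation and -0.27 and -0.82 for contractile genes. Without replicate 3 of both CKD groups the medians were -0.27 for fatty acid oxidation and -0.28 for contractile genes. Summed ventricular markers ran from 70826 to 98679 CPM in sham and from 24406 to 89408 CPM in CKD (exact permutation p = 0.025, adjusted 0.072), and their part in these medians was not tested.

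Genes encoded by the mitochondrial genome went the other way from the nuclear genes of the respiratory chain. All 13 were positive, with a median of 0.44, and all 29 nuclear genes were negative, with a median of -0.38. The nuclear median was -0.09 in the saline arm and -0.67 in the JV001 arm, and the mitochondrial median 0.57 and 0.31. The summed nuclear genes of CKD saline replicates 1 and 2 (32443.8 and 32453.6 CPM) lay inside the sham range of 26260.5 to 33067.5 CPM. Neither list had a call in edgeR (4 and 3 with an unadjusted p under 0.05, and 4 and 1 called by DESeq2). Over all 15004 genes, 15.7% were higher and 11.3% lower at an unadjusted p under 0.05. The nuclear list's 3 of 29 was near the share of lower genes. DESeq2 called 1215 higher and 719 lower over all genes. The mitochondrial genome took 25.7% ± 5.97 of counts in sham and 33.5% ± 4.04 in CKD (SD, n = 6 each, exact permutation p = 0.04, adjusted 0.072). These genes have nuclear copies, so their counts are uncertain.

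Other lists were mixed in sign or spread widely, and held no call, which at 0.3% of all genes called is near the background for lists of this size. Over all genes 27% had an unadjusted p under 0.05, and DESeq2 called 1934 of 15004. The renin-angiotensin-aldosterone list had 5 positive and 5 negative members of 10 and a median of -0.11 (6 with an unadjusted p under 0.05, 3 called by DESeq2). In that list Ace, the angiotensin-converting enzyme gene, stood at 1.35 (SE 0.357, adjusted p = 0.0875), and Lnpep, an aminopeptidase gene, at -0.76 (SE 0.156, adjusted p = 0.0641). The hypertrophy and fetal programme list had a median of -0.05 over 19 genes (8 with an unadjusted p under 0.05, 4 called by DESeq2), and Corin, the protease that activates natriuretic peptides, stood at -0.91 (SE 0.206, adjusted p = 0.0665). The telomere cap and telomerase list had a median of -0.05 over 17 genes (4 with an unadjusted p under 0.05, 1 called by DESeq2), and its smallest adjusted p was 0.127 (Nhp2, 0.38, SE 0.139). Atrial markers had a median of -1.88 over 8 genes, with 7 negative and no call in edgeR (7 with an unadjusted p under 0.05, 7 called by DESeq2). Their summed level ran from 480 to 4513 CPM in sham and from 308 to 1122 CPM in CKD (exact permutation p = 0.015, adjusted 0.072). Among these markers Myl7, an atrial myosin light chain, spread from 12.8 to 492 CPM among sham libraries alone. Myl7 ran from 10.7 to 70.6 CPM among CKD libraries, with overlap.

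The 2 arms were then set side by side. Alone, the saline arm had no call in edgeR (743 genes with an unadjusted p under 0.05, 4.95%) and the JV001 arm had 3 (0.02%, with 4120 or 27.5% at an unadjusted p under 0.05). The interaction had no call (567 genes or 3.78% at an unadjusted p under 0.05, smallest adjusted p 0.84), so no gene was shown to respond differently to CKD under the 2 injections. Among the 35 genes that fell, the median log2 fold change was -0.87 in the saline arm and -1.10 in the JV001 arm, and 29 were lower in the JV001 arm, beside 11153 of 15004 genes with a larger change in that arm in the whole table. Among the 10 that rose the medians were 2.02 and 2.33. Cspg4b and Ppm1l were the 2 of the 45 with an unadjusted interaction p under 0.05 (0.0275 and 0.0319), and both fell more in the JV001 arm, by 2.06 against 1.04 for Cspg4b and by 1.17 against 0.53 for Ppm1l.

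**Figure D3:**
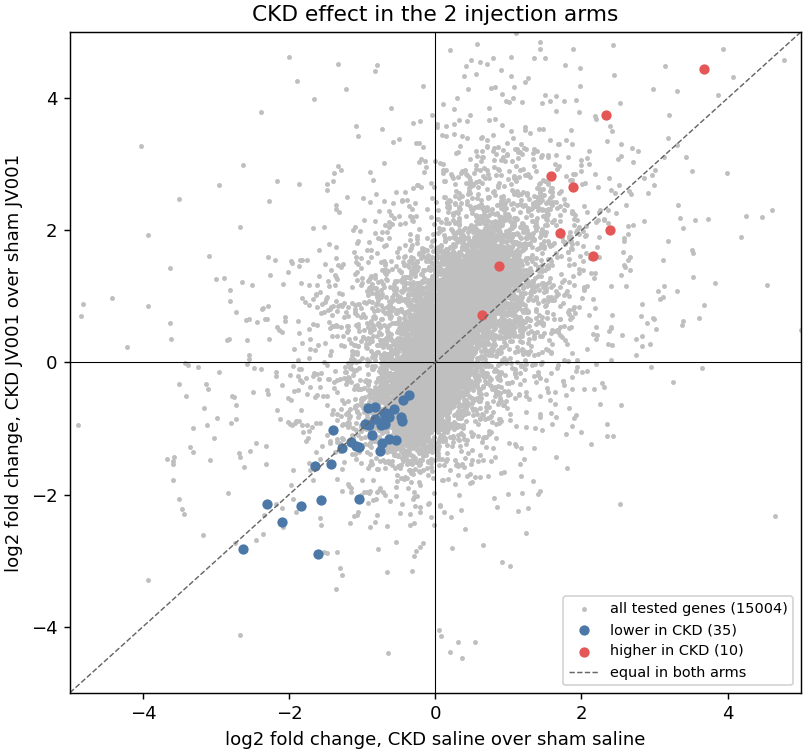
Log2 fold change of CKD over sham in the saline arm (horizontal) and in the JV001 arm (vertical), 1 point per gene. Grey points are all 15004 genes tested, blue the 35 that fell, red those that rose, and the dashed line marks equal change. Both axes are cut at 5, which leaves out 74 genes, Chil3 among them, and the coloured points all lie in the lower left or upper right quadrant, most of them farther from 0 on the JV001 axis.

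Genes chosen in 1 arm could be read in the other, since each arm was fitted alone for this purpose and the arms share no library. Of the 50 higher genes with the smallest p in the saline arm, 47 had the same sign in the JV001 arm and 23 (46%) an unadjusted p under 0.05 in that direction, beside 18.8% of all genes. Of the 50 lower genes, 46 had the same sign and 32 (64%) passed, beside 11.7%. In the reverse reading 50 of 50 higher and 48 of 50 lower genes from the JV001 arm had the same sign in the saline arm, and 8 (16%) and 12 (24%) passed, beside 1.36% and 2.03%. With 200 genes chosen in the JV001 arm, 13 of the higher (6.5%) and 37 of the lower (18.5%) passed in the saline arm, and with 200 chosen in the saline arm, 99 (49.5%) and 106 (53%) passed in the JV001 arm. For the 50 genes chosen in the JV001 arm the median log2 fold change in the saline arm was smaller, at 0.89 against 1.67 for the higher genes and -0.38 against -1.17 for the lower genes. Across all tested genes the 2 arms' log2 fold changes had a Pearson correlation of 0.459 and a Spearman correlation of 0.552, which describes genes within these libraries, and genes are not independent replicates.

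The genes that fell were long. The exonic length implied by the deposited counts and FPKM had a median of 8237 bases in the 35 genes that fell (quartiles 4046 and 11840), 2229 bases in the 10 that rose and 3644 bases in all tested genes. Among the 1701 lower genes with an unadjusted p under 0.05 the median was 5153 bases. As a measure of coverage, the median log2 CPM of the longest 10% of genes minus that of the shortest 10% was 0.958 ± 0.0746 in sham and 0.833 ± 0.197 in CKD (SD, n = 6 each, exact permutation p = 0.205, adjusted 0.284). The lowest values were those of replicates 1 and 2 of both CKD groups (0.695 to 0.740), and CKD JV001 replicate 3 had the highest of all libraries (1.19). The part of length in the calls was not tested.

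**Figure D4:**
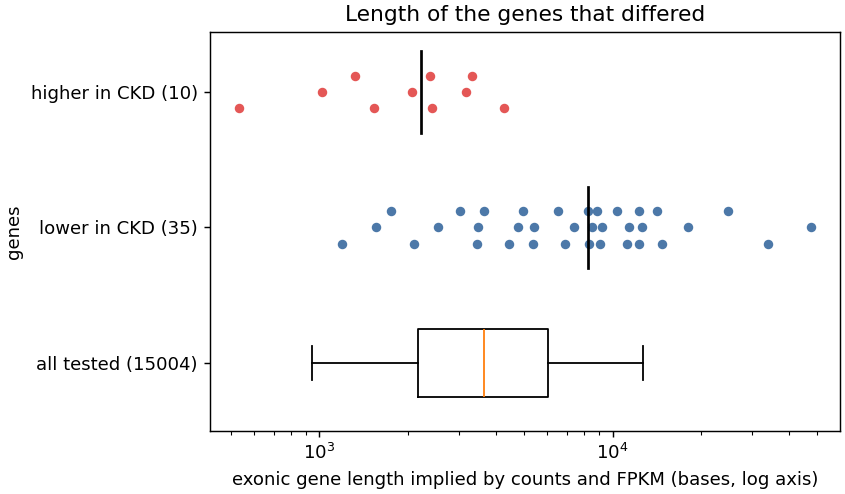
Exonic gene length in bases, on a log axis, for the 35 genes that fell and the 10 that rose (1 point per gene, vertical bars at the medians) and for all 15004 tested genes (box at the quartiles, line at the median, whiskers at the percentiles 5 and 95). The median of the genes that fell, 8237 bases, lies above the upper quartile of all genes, 6011 bases.

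The count of 45 depended strongly on single libraries. Leaving out sham saline replicate 1 raised it to 1571 (1063 higher, 508 lower, all 45 among them), leaving out CKD saline replicate 1 to 154 and leaving out CKD JV001 replicate 3 to 57. Leaving out any 1 of the other 9 lowered it: to 3 without CKD JV001 replicate 1, 4 without sham JV001 replicate 1, 5 without sham JV001 replicate 2, 6 without CKD JV001 replicate 2 and 7 without sham saline replicate 3, sham JV001 replicate 3 or CKD saline replicate 3. It was 9 without sham saline replicate 2 and 17 without CKD saline replicate 2. Cenpf, Ptger4 and Pde3a were called in all 12 of these fits, Slc40a1 in 11 and Klhl13 in 9. The other 40 were called in 2 to 6 of the 12, and the adjusted p of a called gene then reached at most 0.16. All 45 kept their direction and an unadjusted p under 0.05 in each of the 12, which reuse the libraries that called them and so are no independent support. Without replicate 3 of both CKD groups the count was 34 (6 higher, 28 lower), 23 of the 45 among them, and with sham saline replicate 1 left out as well, a setting chosen after seeing the data, it was 2477 with all 45 among them. With replicates 1 and 2 summed within each CKD group, because of their likeness, edgeR called 0 genes (smallest adjusted p 0.0634), and all 45 kept their direction with an unadjusted p under 0.05.

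**Figure D5:**
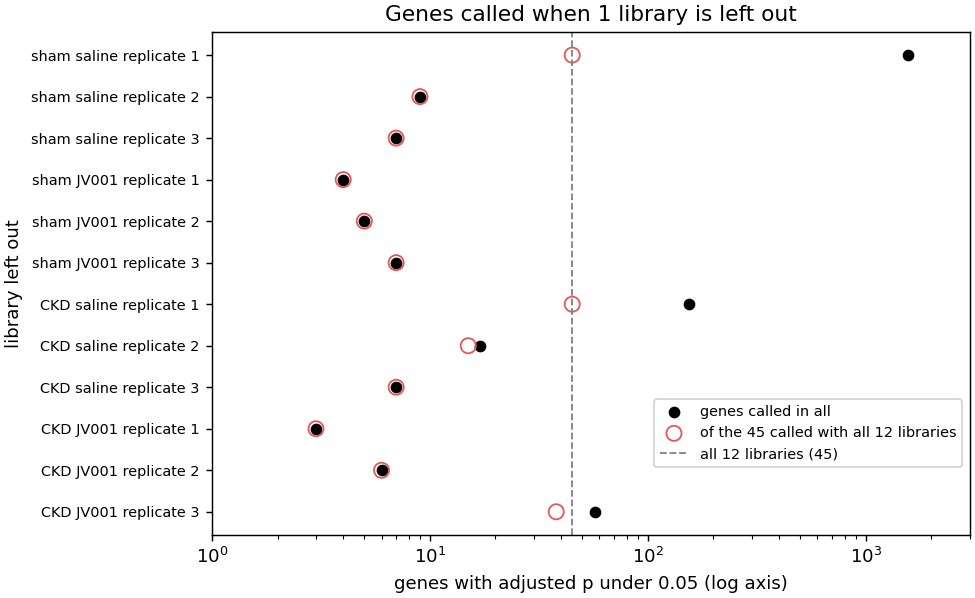
Number of genes with an adjusted p under 0.05 when 1 library is left out (black points, log axis), and how many of the 45 are among them (red rings), with 1 row per library and a dashed line at 45. Leaving out sham saline replicate 1 gives 1571 genes and leaving out CKD JV001 replicate 1 gives 3.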

How the data were processed

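RNA-seq of polyadenylated RNA was measured in 12 libraries whose labelled cell type is cardiomyocytes, made with an RNeasy plus kit and a VAHTS Universal V6 library kit from 1.3 ug of total RNA, per the labels' protocols. Whole-number counts of reads per gene were deposited for 22584 symbols, with no normalisation by the authors. The authors' deposited FPKM derive from those counts: where all 12 libraries held 50 reads or more of a gene (10249 genes), 1 whole-number length per gene returned the FPKM in 100% of cases at a tolerance of 0.001. The submitters' processing notes name fastp, HISAT2, HTSeq and build GRCm39. Not given in the sources used here are versions, annotation and the strand setting, and reads from overlapping or antisense genes may be mixed. Of the symbols, 18697 were in the reference table.

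The test was edgeR 4.0.16 (R 4.3.3) on counts, with TMM factors, filterByExpr by the 4 groups (minimum count 10), an additive fit of injection and model, the quasi-likelihood F test and Benjamini-Hochberg adjustment over 15004 genes, threshold 0.05. Contrasts within each arm and the interaction came from a fit of 4 group means. Log2 fold changes are CKD over sham, and SE is their standard error. Mean levels are CPM with TMM factors, and log2 CPM used a prior count of 2. Single library values were compared by two-sided exact permutation within arms (400 arrangements, smallest p 0.005). Limits for a count of 0 (3 reads) cover counting error only. On simulated counts with 200 changed genes the additive fit recovered 53.5% of them, and 4.46% of its calls were false. The simulated libraries were drawn independently, with none made outlying or closely alike, so they do not cover these features of the data.

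The 45 genes, the 26 pathway and 14 marker lists (611 of 619 symbols found) and the rules were chosen with earlier results of these data known. Genes were to be named from those shared by both arms with a group mean of at least 1 CPM (up to 10 higher and 10 lower by fold change), those without overlap (up to 8 each way by p) and up to 3 members of each list by p. Of the 45, 20 were outside that rule (among them Lgr6, Castor2, Akap9, Pdpk1 and the Gm-numbered and Rik names), as were Acot2, Ptgds and the Mcm genes besides Mcm2 and Mcm5, and these were named after their values were seen. Lists share genes. Alternatives were RLE factors, other filters, DESeq2 1.42.0, other designs, voom with quality weights and limma 3.58.1 on log2 FPKM with a pseudocount of 1 or 0.1, libraries left out or summed, and 1 setting added after seeing the data.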

Additional observations from a re-analysis of the deposited data

Results flagged for a closer look

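Among 124 groups of 6 libraries checked for a single distant library (the 45 genes, marker sums and library values), 14 had one. The limit used gives about 1 in 20 for independent normal values. Levels here were in CPM, not on a log scale, and genes are not independent, so no excess over chance was shown. Sham saline replicate 1 was the distant library in 6 of the 14. It had the highest sham level of Rp1 (7.55 CPM, others 3.00 to 4.25), of Adcy1 (17.4 CPM, others 5.82 to 8.16) and of Ndnf, a secreted glycoprotein gene (17.0 CPM, others 6.48 to 9.39). Its summed neutrophil markers were 62.2 CPM, against 0.907 to 8.27 in the other sham libraries, and its T and NK cell markers 2.44 CPM, against 0.492 to 1.21. Its summed sex-linked genes were the lowest in sham, at 88.3 CPM against 122 to 130.

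CKD JV001 replicate 3 was the distant library in 5. It had the highest CKD level of Ccl5 (3.29 CPM, others 0.259 to 1.11), Chil3 (7.51 CPM, others 0.222 to 1.84) and Tspan4 (83.4 CPM, others 27.5 to 47.4). Its summed neutrophil markers were 347 CPM, against 5.48 to 84.1 in the other CKD libraries, and its Schwann cell markers 9.98 CPM, against 1.63 to 4.06. Without this library Ccl5 was still called, with a log2 fold change of 3.68.

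The last 3 were single genes: Slc7a1 in sham saline replicate 2 (99.5 CPM, others 68.2 to 74.4), Pdpk1 in sham JV001 replicate 1 (58.1 CPM, others 48.4 to 50.2) and Gm40652 in CKD saline replicate 3 (1.59 CPM, others 0.504 to 0.697).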

How the results depend on the processing

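The direction of all 45 genes was the same under each of the 28 alternatives in which they were tested, while the count of calls moved. The alternatives reuse the libraries that called the 45, so a kept direction was likely beforehand and is no independent support. Counts below are all genes called, then higher, then lower, where the main fit had 45, 10 and 35. Leaving out 1 library gave from 3 to 1571 (1 to 1063 higher, 2 to 508 lower), and genes called and shared by both arms ran from 3 to 1255 (44 with all libraries). The DESeq2 Wald test gave 1934, 1215 and 719, and voom with quality weights 3717, 2160 and 1557. The average of both arms' contrasts gave 71, 16 and 55, and the fit without the injection term 24, 4 and 20. On log2(FPKM + 1) there were 96 (82 lower), on log2(FPKM + 0.1) 80 (65 lower), and on log2(FPKM + 1) without a filter 26 (1 higher). The stricter filter gave 6 higher, as did leaving out replicate 3 of both CKD groups. Summing CKD replicates 1 and 2 gave 0, 0 and 0, with 4645 genes at an unadjusted p under 0.05. Leaving out sham saline replicate 1 and both CKD replicates 3, chosen after seeing the data, gave 2477, 1386 and 1091. The cause of these moves was not tested, beyond the fewer libraries that some of them hold.

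With the replicate number as a block, 28 genes were called (6 higher, 22 lower), 26 of the 45 among them. The numbers share no stated source: same-numbered libraries of different groups had correlations from -0.385 to 0.492, over 0.1 in 6 of 18 pairs, and other pairs from -0.412 to 0.497, over 0.1 in 18 of 36. Depth limits Ccl5, with 11 sham reads, and Chil3, with 0.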

Other observations

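Some genes outside the 45 had different sizes of change in the arms, none of which passed edgeR's interaction test (smallest adjusted p 0.84). Pdk4, the kinase that restrains glucose oxidation, stood at -0.17 in the saline arm and -2.73 in the JV001 arm, and its sham libraries ran from 221 to 2287 CPM. Egr3, an immediate early transcription factor gene, stood at 2.82 in the saline arm and 0.70 in the JV001 arm. Nr1d1, a repressor of the circadian clock, stood at 0.43 and 1.39, while Per1, also of the clock, stood at 0.78 and 0.75 and had higher levels in each CKD library (93.8 to 192 CPM) than in any sham library (60.8 to 87.9 CPM, adjusted p = 0.0854). Hbb-bt, a beta globin gene, had 0.441 to 3.18 CPM in sham and 3.73 to 40.9 CPM in CKD, with no overlap and an adjusted p of 0.0686, and its reads cannot be told from those of near-identical globin genes. Summed erythroid markers ran from 10.3 to 57.2 CPM in sham and from 47.8 to 666 CPM in CKD (exact permutation p = 0.015, adjusted 0.072).

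The summed levels of the prostaglandin list were 219 to 293 CPM in sham and 323 to 511 CPM in CKD, so the CKD libraries did not overlap sham, and unlike the inflammation list the highest were CKD saline replicates 1 and 2. Ptgds, a prostaglandin D synthase gene chosen here after its values were seen, made up most of that sum, with a mean of 193 CPM in sham and 320 CPM in CKD (log2 fold change 0.72, SE 0.284, adjusted p = 0.142). No test was run on the sums of pathway lists, and the share of lists without overlap was not counted.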
